A study of Mus musculus with 6 samples.

Results

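A set of 10 genes that astrocytes switch on or raise when they become reactive were followed in the mouse hippocampus: Gfap, Vim, Nes, S1pr3, Lcn2, Serpina3n, Steap4, Cd44, Aspg and Chil1. They were taken as the rows of the authors' comparison table with these gene names, which gave 10 genes of the 30821 with a count in any library. All 10 had enough counts to be tested, among 16758 tested genes. The 6 libraries came from male C57BL/6J mice, 1 mouse each, whose CA1 field was injected on both sides with an adeno-associated virus (AAV) at 8 weeks of age, and all carry a label of 31 days. In the 3 TAF15 OE mice the virus carried TAF15, an RNA-binding protein, and its label names the promoter CaMKIIα, which is active in excitatory neurons. The 3 Control mice received a control AAV, whose label names neither promoter nor cargo, so both groups had surgery and a virus. The comparison asks how the hippocampal transcriptome differs when TAF15 is raised.

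Astrocytes are the glia that clear glutamate, buffer potassium and contact blood vessels and synapses. After injury, infection or neuronal damage they thicken their processes, build more intermediate filament and secrete acute-phase and immune proteins, a state called reactive. Cytokines of the interleukin-6 family act through gp130, JAK and the transcription factor STAT3, and interleukin-1 and tumour necrosis factor act through NF-κB, and both routes are known to raise reactive genes. Hippocampal astrocytes hold GFAP at rest, while many cortical astrocytes hold little.

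The libraries held between 14965464 and 16067000 counts. Counts of Taf15, the overexpressed gene, were 908, 958 and 795 for Control 1 to 3, against 3897, 3661 and 4477 for TAF15 OE 1 to 3, well apart. Its level went from 59.4 ± 5.64 to 254 ± 16.1 CPM (the count relative to the scaled library total, mean ± SD, n = 3 mice per group, as for all levels below), with a log2 fold change of 2.1 (standard error, SE, 0.086; adjusted p = 4.97e-07 by edgeR's quasi-likelihood test with Benjamini-Hochberg adjustment over all tested genes, the test behind every adjusted p below). A gene is said to rise or fall only where this adjusted p was below 0.05. Over all genes, 1562 rose and 997 fell, so that 61.0% of the calls were higher in TAF15 OE. That share was 72.0% when libraries were scaled by total counts alone and 6.28% when they were scaled on the resting astrocyte genes described below. Markers of resting astrocytes stood high in every library, summing to 8309 to 9856 CPM in Control and 10601 to 12041 in TAF15 OE over 18 genes.

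Of the 10 reactive astrocyte genes, 8 rose in TAF15 OE and 0 fell, where 9.32% of all tested genes rose and 5.95% fell. Gfap, Vim, S1pr3, Cd44, Steap4, Serpina3n, Chil1 and Aspg passed the test, and Nes and Lcn2 did not. At an unadjusted p below 0.05, 9 were higher and 0 lower (16.8% of all tested genes were higher), and with DESeq2 after adjustment 9 were also higher and 0 lower (8.81% higher). All 10 log2 fold changes were above 0, from 0.42 for Nes, which turned to -0.0061 with libraries scaled on resting astrocyte genes, to 2.50 for Cd44, with a median of 1.80 against 0.026 over all tested genes. All but Nes (0.196), 9 genes in all, were higher at an adjusted p below 0.05 in the authors' deposited table, as were 8.51% of its genes with an adjusted p. In 9 genes every TAF15 OE library lay above every Control library, a pattern that 19.1% of all tested genes showed. RNA was taken from whole hippocampus, so more astrocytes and more of these RNAs per astrocyte cannot be told apart.

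**Figure D1:**
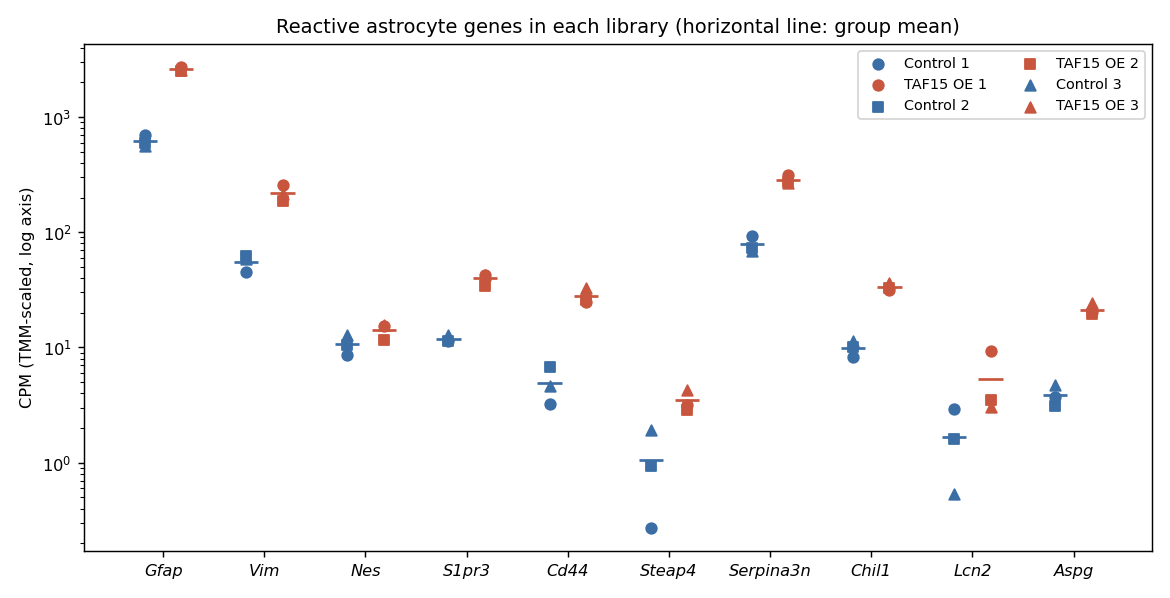
Levels of the 10 reactive astrocyte genes in each library, in CPM on a log axis, with Control and TAF15 OE side by side; points are mice and bars are group means. The TAF15 OE points lie above all Control points in every gene except Nes.

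Promoter windows of all 10 genes were read from RefSeq (GRCm38.p6, 250 bases before to 50 after the start, with the start counted as 0). Both strands were searched. A palindromic STAT motif, TTCNNNGAA, lay in the windows of Gfap and Steap4, 2 of 10, and in 8.30% of 32851 promoters. The NF-κB motif, GGG then any 2 bases then TTTCC, lay in the windows of Vim, Serpina3n and Steap4, 3 of 10, and in 1.63% of all promoters. The AP-1 motif TGANTCA was in 0 of 10 windows (7.81% of all), and TATAAA in those of Vim and Steap4 (13.6% of all). The 4 windows with a STAT or NF-κB match are given 5′ to 3′ on the strand of the gene, with the matches in capitals, since these are the signal routes named above. In Gfap (chr11:102897151-102897450, minus strand) the STAT match spans -2 to 6, and in Steap4 (chr5:7960222-7960521, plus strand) it spans -116 to -108, after an NF-κB match at -226 to -217. In Vim (chr2:13574061-13574360, plus strand) the NF-κB match spans -223 to -214, and in Serpina3n (chr12:104406458-104406757, plus strand) -171 to -162. The windows of Gfap, Vim and Lcn2 lie wholly inside the gene spans given below, which begin farther upstream. Positions there are counted from the RefSeq start used and not from the first annotated base of the gene. A match of letters is a description of the window and not a measured site.
Gfap promoter: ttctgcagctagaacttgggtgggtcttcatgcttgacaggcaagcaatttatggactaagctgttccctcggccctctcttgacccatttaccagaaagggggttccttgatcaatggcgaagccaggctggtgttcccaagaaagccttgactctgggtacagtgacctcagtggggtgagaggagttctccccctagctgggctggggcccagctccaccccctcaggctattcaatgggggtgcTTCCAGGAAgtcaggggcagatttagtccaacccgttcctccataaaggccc
Steap4 promoter: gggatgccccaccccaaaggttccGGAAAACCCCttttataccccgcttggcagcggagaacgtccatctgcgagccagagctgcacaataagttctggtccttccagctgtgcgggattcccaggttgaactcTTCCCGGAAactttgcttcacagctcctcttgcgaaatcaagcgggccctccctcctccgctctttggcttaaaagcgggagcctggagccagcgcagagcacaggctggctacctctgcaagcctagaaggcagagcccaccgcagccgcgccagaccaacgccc
Vim promoter: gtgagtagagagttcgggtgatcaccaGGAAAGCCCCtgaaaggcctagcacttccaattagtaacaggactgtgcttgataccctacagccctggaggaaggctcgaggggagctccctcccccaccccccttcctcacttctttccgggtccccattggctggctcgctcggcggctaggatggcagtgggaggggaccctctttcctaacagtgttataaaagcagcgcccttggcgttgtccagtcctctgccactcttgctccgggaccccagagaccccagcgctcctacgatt
Serpina3n promoter: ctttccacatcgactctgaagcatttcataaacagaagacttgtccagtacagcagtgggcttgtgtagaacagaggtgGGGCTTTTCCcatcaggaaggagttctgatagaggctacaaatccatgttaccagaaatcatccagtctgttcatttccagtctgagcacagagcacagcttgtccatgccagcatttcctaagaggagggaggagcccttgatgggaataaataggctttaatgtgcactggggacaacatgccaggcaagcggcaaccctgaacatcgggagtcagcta

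Gfap (ENSMUSG00000020932, GRCm38 chromosome 11, 102887336 to 102900912, minus strand) encodes glial fibrillary acidic protein, the main intermediate filament of mature astrocytes and the standard marker of their reactive state. The Control mice gave 10177, 8958 and 8477 counts of Gfap, the TAF15 OE mice 42492, 37925 and 42119. The groups lay far apart, and the TAF15 OE mice differed little among themselves, with a coefficient of variation of 4.41% of their CPM. Control mice averaged 617 ± 66.1 CPM and TAF15 OE mice 2588 ± 114, 4.20-fold higher (log2 fold change 2.07, SE 0.090, adjusted p = 4.97e-07). By p value Gfap ranked 2 of all tested genes, directly after Taf15, although it ranked 102 by log2 fold change. Its transcripts took up to 0.0665% of the counts of a Control library and up to 0.272% of a TAF15 OE library.

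Vim (ENSMUSG00000026728, chromosome 2, 13573927 to 13582826, plus strand) encodes vimentin, the filament partner of GFAP in reactive astrocytes, and is also made by endothelial, ependymal, microglial and connective tissue cells. Counts of Vim were 660, 940 and 874 in the Control libraries and 3983, 2831 and 3549 in the TAF15 OE libraries. The lowest TAF15 OE library, number 2, still stood well above all Control libraries. Vim rose from 55.1 ± 9.16 to 219 ± 34.3 CPM, 3.97-fold (log2 fold change 1.99, SE 0.15, adjusted p = 0.000555).

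Nes (ENSMUSG00000004891, chromosome 3, 87971078 to 87980451, plus strand) encodes nestin, the intermediate filament of neural stem cells, which is also found in vessel walls and in strongly reactive astrocytes. Counts of Nes were 127, 159 and 192 for Control 1, 2 and 3, against 242, 177 and 258 for TAF15 OE 1, 2 and 3. Control 3 reached above TAF15 OE 2, so the groups overlapped. The levels were 10.7 ± 2.09 and 14.3 ± 2.27 CPM, a log2 fold change of 0.42 (SE 0.17) that did not pass the test (adjusted p = 0.127).

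A further 10 genes encode other intermediate filaments or proteins built into them (neurofilaments, lamins, desmin, synemin, peripherin and the linker plectin). By edgeR they showed 0 higher and 1 lower call, where 9.32% of all tested genes rose and 5.95% fell. At an unadjusted p below 0.05 there were 1 higher and 3 lower, and by DESeq2 0 higher and 3 lower. The median log2 fold change of these genes was -0.010. The edgeR call was Ina, which encodes the neuronal filament internexin and had a log2 fold change of -0.34 (SE 0.085), a fall with adjusted p = 0.0206. Ina did not pass when Control 1, Control 2, TAF15 OE 2 or TAF15 OE 3 was left out (adjusted p 0.0567 to 0.1). The neurofilament genes Nefh and Nefl had log2 fold changes of -0.26 and -0.25 and did not pass (adjusted p = 0.0618 and 0.101); Nefh passed without Control 2 (0.0451) or TAF15 OE 1 (0.0479), and Nefl without TAF15 OE 1 (0.0254). Lmnb1, a nuclear lamin, stood at 0.48 (adjusted p = 0.0734). Neuronal marker sums were 9767 to 11533 CPM in Control and 7320 to 8372 in TAF15 OE, with 5 of 7 markers lower, and their part in the neuronal filament values was not tested.

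S1pr3 (ENSMUSG00000067586, chromosome 13, 51408639 to 51422797, plus strand) encodes a receptor for sphingosine-1-phosphate, a lipid signal released in inflamed tissue. Per mouse, S1pr3 had 168, 173 and 191 counts under the control virus but 667, 519 and 700 under TAF15. Control mice were close to each other and no TAF15 OE mouse came near them. The level rose 3.35-fold, from 11.9 ± 0.742 to 39.7 ± 4.87 CPM, which is 1.74 in log2 terms (SE 0.12; adjusted p = 3.25e-05).

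Cd44 (ENSMUSG00000005087, chromosome 2, 102811141 to 102901665, minus strand) encodes the hyaluronan receptor, which anchors cells to the extracellular matrix and is carried by reactive astrocytes and by many leukocytes. The Control mice gave 48, 102 and 70 counts of Cd44, the TAF15 OE mice 385, 390 and 542. The groups were widely separated although Control mice varied. Its level went from 4.90 ± 1.76 to 27.7 ± 4.52 CPM, 5.65-fold (log2 fold change 2.50, SE 0.24, adjusted p = 0.000742).

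Steap4 (ENSMUSG00000012428, chromosome 5, 7960457 to 7982213, plus strand) encodes a membrane metalloreductase that reduces iron and copper and is induced by inflammatory cytokines. Counts of Steap4 were 4, 14 and 29 for Control 1, 2 and 3, against 50, 44 and 71 for TAF15 OE 1, 2 and 3. Every TAF15 OE library was above every Control library, but the Control counts differed widely and were all low. Control mice averaged 1.04 ± 0.836 CPM and TAF15 OE mice 3.47 ± 0.746, which is 1.72 in log2 terms (SE 0.49; adjusted p = 0.0458). Leaving out a single library ended the call for 5 of the 6: without Control 1 the log2 fold change was 1.27 (adjusted p = 0.0568), without Control 2 1.64 (0.159), without TAF15 OE 1 1.75 (0.0784), without TAF15 OE 2 1.82 (0.0926) and without TAF15 OE 3 1.53 (0.137). Without Control 3 it was 2.51 (adjusted p = 0.0145). Steap4 was therefore the least secure of the 8 calls.

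Among 24 genes of the ligands, enzymes and co-receptors that work with S1PR3, CD44 and other members, 20 were tested. Of these 4 rose and 0 fell, where 9.32% of all tested genes rose and 5.95% fell. Their median log2 fold change was 0.25 (-0.18 with libraries scaled on resting astrocyte genes). Sgpl1, the lyase that breaks down sphingosine-1-phosphate, went from 36.7 ± 1.45 to 61.1 ± 3.53 CPM (0.74 on the log2 scale, SE 0.080, adjusted p = 0.000394). Lgals3, which encodes the glycan-binding protein galectin-3 and is made by activated microglia and macrophages, went from 2.11 ± 0.947 to 8.58 ± 1.67 CPM (2.02, SE 0.31, adjusted p = 0.00337). Vcan, the hyaluronan-binding proteoglycan versican of oligodendrocyte precursors, rose by 0.49 (adjusted p = 0.00487; 0.065 and adjusted p = 0.667 with libraries scaled on resting astrocyte genes). S1pr1, the related receptor that resting astrocytes and endothelium carry, rose by 0.40 (adjusted p = 0.0208; -0.023 with libraries scaled on resting astrocyte genes, of which it is one), but not without Control 1, Control 2, TAF15 OE 1 or TAF15 OE 2 (adjusted p 0.0582 to 0.0699). The log2 difference was thus 1.74 for S1pr3 and 0.40 for S1pr1, and the gap between them was not tested.

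Serpina3n (ENSMUSG00000021091, chromosome 12, 104406729 to 104414329, plus strand) encodes a secreted inhibitor of serine proteases, an acute-phase protein strongly induced in mouse reactive astrocytes. It sits in a cluster of related Serpina3 genes between which reads may be shared. Per mouse, Serpina3n had 1372, 1110 and 1026 counts under the control virus but 4905, 4147 and 4371 under TAF15. The TAF15 OE mice were alike and all far above the Control mice. Its level rose from 78.4 ± 13.1 to 284 ± 25.9 CPM, 3.62-fold (log2 fold change 1.86, SE 0.12, adjusted p = 5.73e-05).

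Chil1 (ENSMUSG00000064246, chromosome 1, 134182176 to 134190181, plus strand) encodes a secreted chitinase-like protein, whose human counterpart YKL-40 is measured in cerebrospinal fluid as a sign of glial activation. The Control mice gave 121, 152 and 172 counts of Chil1, the TAF15 OE mice 491, 494 and 594. The TAF15 OE libraries lay close together and apart from Control. The change was from 9.92 ± 1.63 to 33.3 ± 2.45 CPM, which is 1.75 in log2 terms (SE 0.13; adjusted p = 3.42e-05).

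Lcn2 (ENSMUSG00000026822, chromosome 2, 32384633 to 32388252, minus strand) encodes lipocalin-2, a secreted protein that binds bacterial iron carriers and is made by neutrophils, endothelium, choroid plexus and reactive astrocytes. Counts of Lcn2 were 43, 24 and 8 for Control 1, 2 and 3, against 147, 53 and 50 for TAF15 OE 1, 2 and 3. TAF15 OE 1 stood far above the rest, and the lowest TAF15 OE level was 1.04 times the highest Control level. The group means were 1.68 ± 1.20 and 5.30 ± 3.55 CPM (log2 fold change 1.65, SE 0.69), and the test was not passed (adjusted p = 0.174). The log2 fold change was 0.93 without TAF15 OE 1 and 2.31 without Control 1. Lcn2 did pass with DESeq2 (adjusted p = 0.0114) and with Control 1 and TAF15 OE 1 both absent (adjusted p = 0.0193 at a log2 fold change of 1.58), and in the authors' deposited table (adjusted p = 0.0117). Of 9 neutrophil markers none had enough counts for a test, Ly6g had at most 1 count in a library, and their sum was 0.747 to 2.45 CPM in Control and 0.668 to 2.62 in TAF15 OE.

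Aspg (ENSMUSG00000037686, chromosome 12, 112106679 to 112127559, plus strand) encodes an asparaginase and lysophospholipase, and is listed among the genes that many kinds of reactive astrocyte share. Per mouse, Aspg had 55, 47 and 71 counts under the control virus but 316, 297 and 397 under TAF15. The groups did not come near each other. Its level went from 3.86 ± 0.814 to 21.3 ± 2.47 CPM, 5.50-fold (log2 fold change 2.46, SE 0.17, adjusted p = 3.25e-05). Cd44 and Aspg changed most in log2 terms, 2.50 and 2.46, a gap smaller than either SE: without Control 1 they stood at 2.28 and 2.44, and on log2(FPKM + 1) Gfap led with 2.11 against 1.59 and 1.78.

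Relatives of the 10 genes, by family or by enzyme activity, were mostly near the limit of counting. Of 18, 15 had a row and 9 were tested. Among the 9, 4 rose and 0 fell (median log2 fold change 0.52), where 9.32% of all tested genes rose and 5.95% fell. Steap3, an endosomal metalloreductase, rose by 1.04 (SE 0.18, adjusted p = 0.00369), with 8.02 ± 0.914 CPM in Control and 16.5 ± 3.87 in TAF15 OE. Serpina3i had 2, 1 and 0 counts in Control and 20, 16 and 13 in TAF15 OE (adjusted p = 0.00434), and Serpina3g had 35, 30 and 34 against 185, 59 and 77 (log2 fold change 1.62, adjusted p = 0.0423). These Serpina3 genes are relatives of Serpina3n whose sequences were not compared here, and how the authors' counting divided reads between them is uncertain. Serpina3g lost its call without Control 1, 2 or 3 (adjusted p 0.122 to 0.145). The asparaginase gene Asrgl1, grouped here with Aspg by activity, rose by 0.38 (adjusted p = 0.00618) and did not pass without TAF15 OE 2 (0.0511). With libraries scaled on resting astrocyte genes Asrgl1 stood at -0.043.

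**Figure D2:**
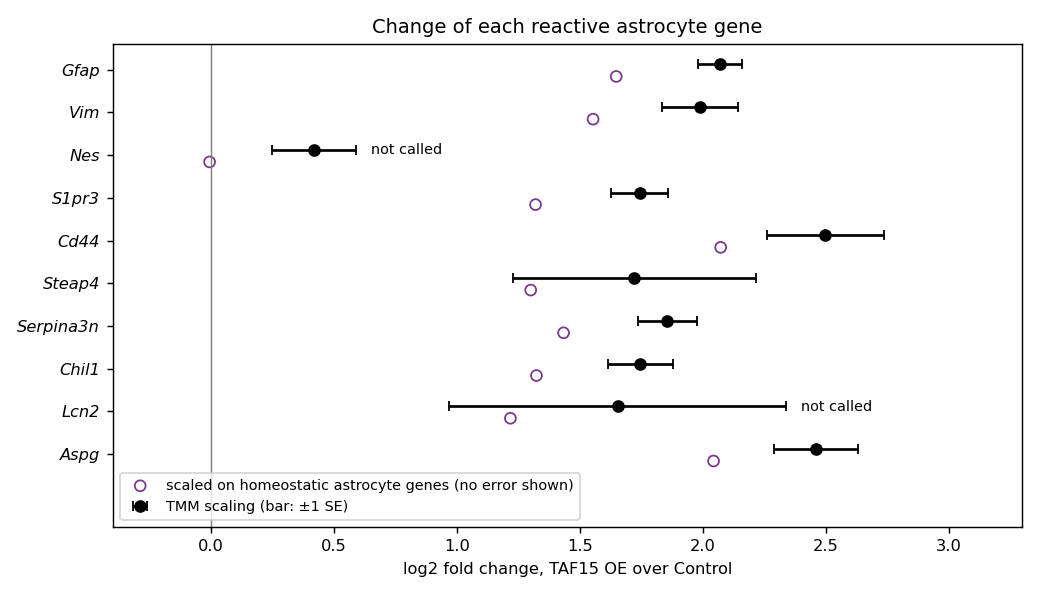
Log2 fold change of each gene, TAF15 OE over Control; filled points with bars are the TMM-scaled estimate ± 1 SE, and open points the estimate when libraries were scaled on 18 resting astrocyte genes. All filled points lie right of 0, from 0.42 (Nes) to 2.50 (Cd44), and the open point of Nes lies at -0.0061.

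Some genes share their stretch of chromosome with another annotated gene on the opposite strand: Gfap with the non-coding Gm26668, S1pr3 with Gm32834 and Cd44 with the small nuclear RNA gene Gm23731, while Aspg holds Mir3073a and Mir3073b. Of the other genes named, Timp1 overlaps Syn1, Cp overlaps Hps3, Cxcl10 overlaps Art3, Ina overlaps Nt5c2 and Nefl overlaps Nefm, and Tgm1, Psmb8, Aqp4, Asrgl1 and Vcan overlap antisense genes. The sources used here do not give whether counting used strand, so reads of these pairs cannot be told apart.

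Levels were compared between genes in FPKM, which divides by gene length. In Control, Gfap led with 143 ± 13.0 FPKM, followed by Serpina3n with 37.2 ± 5.57, Vim with 11.4 ± 2.09, Chil1 with 3.48 ± 0.613 and S1pr3 with 2.61 ± 0.181. Below them came Nes at 1.63 ± 0.337, Aspg at 1.08 ± 0.226, Cd44 at 0.713 ± 0.268, Lcn2 at 0.626 ± 0.436 and Steap4 at 0.327 ± 0.262, and each of these neighbours overlapped the next. In TAF15 OE the first 5 kept their order, with Gfap at 622 ± 21.9 FPKM, Serpina3n at 139 ± 11.05, Vim at 46.7 ± 6.92, Chil1 at 12.1 ± 1.02 and S1pr3 at 9.03 ± 1.10. Aspg (6.13 ± 0.769) and Cd44 (4.15 ± 0.722) then stood above Nes (2.25 ± 0.358), which stayed above Lcn2 (2.04 ± 1.34) and Steap4 (1.12 ± 0.250) in the mean; the libraries of Nes and Lcn2 overlapped, as did those of Lcn2 and Steap4. Nes thus went down the order, passed by Aspg and Cd44.

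Set against Gfap in the same library, 7 of the 9 other genes had ratios that overlapped between the groups. The ratio to Gfap stood apart in 94.9% of all tested genes, 15883 of them lower in TAF15 OE and 17 higher. Because Gfap itself rose, any gene that did not change has a lower ratio. The ratios therefore restate the fold changes above and are no separate evidence that the set moves with Gfap. Wide spread also makes overlap easier, as in Lcn2 (0.421 ± 0.264% of Gfap in Control and 0.324 ± 0.202% in TAF15 OE). Vim FPKM was 8.09 ± 2.01% of Gfap FPKM in Control and 7.49 ± 0.849% in TAF15 OE, and the libraries of the groups overlapped. Nes was 1.16 ± 0.334% of Gfap in Control and 0.361 ± 0.0493% in TAF15 OE, and Serpina3n was 25.9 ± 1.49% and 22.4 ± 1.19%, in both cases with the groups apart. An exact two-sided permutation test of each of the 9 log2 ratios gave p = 0.1 for Nes (difference -1.65) and for Serpina3n (-0.21), the smallest that 3 against 3 mice allow, and adjusted p = 0.45 over the 9; for Vim it gave p = 0.8 with a difference of -0.084.

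**Figure D3:**
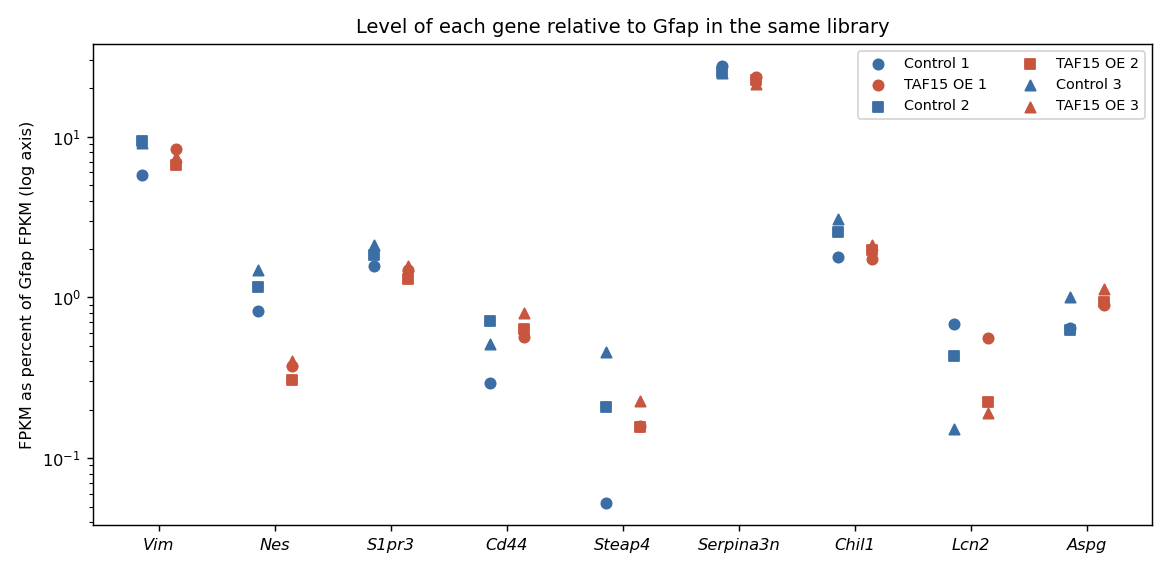
FPKM of each gene as a percentage of Gfap FPKM in the same library, on a log axis; each point is 1 mouse. The group mean for Nes is 1.16% in Control and 0.361% in TAF15 OE, with the groups apart, while those for Vim are 8.09% and 7.49%.

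Resting (homeostatic) astrocyte genes differed as well, by less. Of 18 such genes (glutamate and potassium transport, gap junctions, water channel and others), 12 rose and 0 fell, with a median log2 fold change of 0.41. Without Control 2 or without TAF15 OE 2, 6 of the resting genes rose, where 5.10% and 5.65% of all genes rose. Aqp4, the water channel of astrocyte endfeet, went from 177 ± 27.8 to 414 ± 26.6 CPM, which is 1.23 in log2 terms (SE 0.11; adjusted p = 0.000287). Gja1 (connexin 43, 0.66), Sox9 (an astrocyte transcription factor, 0.64) and Mlc1 (an endfoot membrane protein, 0.60) rose on the log2 scale with adjusted p of 0.000821, 0.00118 and 0.000774. Glul, glutamine synthetase, stood at 0.14 (adjusted p = 0.505) and the growth factor receptor gene Fgfr3 at 0.035 (adjusted p = 0.823), and neither passed.

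The reactive genes were therefore also read against the mean log2 level of these 18 resting genes in the same library, which itself stood at 0.067, -0.062 and -0.0044 in Control 1, 2 and 3 (centred on their mean) and at 0.50, 0.43 and 0.34 in TAF15 OE 1, 2 and 3. On this relative scale TAF15 OE stood above Control by a log2 difference of 1.65 ± 0.060 for Gfap, 1.57 for Vim, 1.31 for S1pr3, 2.13 for Cd44, 2.05 for Aspg, 1.44 for Serpina3n, 1.33 for Chil1 and 1.69 for Steap4, each with the groups apart, a pattern of 4.41% of genes on this scale. Lcn2 stood at 1.35 and Nes at 0.0013, both with overlapping groups. Fitted with libraries scaled on the 18 genes, which moved the median of all genes to -0.40, 7 of the 10 rose, against 3.36% of all genes: Steap4 stood at 1.30 (adjusted p = 0.0532) and Nes at -0.0061 (adjusted p = 0.982), so that the sign of Nes turned.

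Marker sums of several other cell types that express some of these genes were also higher in TAF15 OE. The part of such cells in the values of Vim, Cd44, Lcn2, Chil1, S1pr3 and Nes was not tested. The counts of higher markers below stand beside 9.32% of all tested genes that rose. Microglial markers summed to 352 to 401 CPM in Control and 629 to 860 in TAF15 OE, with 7 of 8 genes higher. Endothelial markers summed to 203 to 259 and 287 to 348 CPM (4 of 7 higher), pericyte markers to 183 to 216 and 251 to 292 (3 of 6) and fibroblast markers to 63.4 to 117 and 146 to 150 (2 of 6). Lymphocyte markers summed to 5.57 to 30.9 CPM in Control and 78.7 to 167 in TAF15 OE, with 4 of the 5 tested higher. Most of that sum was Jchain, a plasma cell gene at 3.18 to 27.9 CPM in Control and 62.4 to 156 in TAF15 OE, which did not pass (adjusted p = 0.132). Neural stem cell markers, which share nestin's best-known source, summed to 94.9 to 110 and 116 to 126 CPM (2 of 6 tested higher). Ependymal markers summed to 28.7 to 42.6 and 52.1 to 62.9 CPM (1 of 4). With libraries scaled on resting astrocyte genes, 6 microglial and 4 lymphocyte markers were called higher, where 3.36% of all tested genes were. In that fit 0 endothelial, pericyte, fibroblast, neural stem or ependymal markers were called higher. Of the neural stem markers 2 were called lower there, as were 8397 of all 16758 tested genes. Choroid plexus markers, by contrast, varied within groups, from 145 CPM in Control 1 to 4638 and from 1521 in TAF15 OE 1 to 4956, with 0 of 6 called by edgeR, by DESeq2 or at an unadjusted p below 0.05. Without Control 1 and TAF15 OE 1 together, 9 of the 10 reactive genes rose, Lcn2 joining the 8, against 7.05% of all genes.

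Other genes of the reactive state were counted by published groupings of reactive astrocytes. The pan-reactive genes beside the 10 numbered 5, of which 3 rose and 0 fell (median log2 fold change 1.13). Among all tested genes 9.32% rose and 5.95% fell. Without Control 1, Control 2 or TAF15 OE 3 the number of the 5 that rose was 1, where 5.55%, 5.10% and 6.54% of all genes rose. Without TAF15 OE 1 the median of the 5 was 0.72. Osmr, the oncostatin M receptor that passes the signal of that interleukin-6 family cytokine to gp130, went from 8.92 ± 1.47 to 36.3 ± 5.38 CPM, which is 2.03 in log2 terms (SE 0.15; adjusted p = 3.25e-05). Cp, the copper-carrying ferroxidase ceruloplasmin, rose by 0.96 (adjusted p = 0.0312) but not without Control 1, Control 2 or TAF15 OE 3 (adjusted p 0.102 to 0.118). Timp1, a metalloproteinase inhibitor with at most 56 counts in a library, rose by 1.17 (adjusted p = 0.0485) and passed in only 1 of the 6 fits that left out a library, the others giving adjusted p from 0.0619 to 0.196. Cxcl10, a T cell chemokine, had a log2 fold change of 1.13 with overlapping groups (adjusted p = 0.247).

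Of the genes tied to neuroinflammatory (A1) astrocytes, 4 of 11 rose and 0 fell, where 9.32% of all tested genes rose and 5.95% fell. The median of these A1 genes was 1.27. TAF15 OE 1 stood apart in several of them: the class I gene H2-D1, which did not pass (adjusted p = 0.189), was at 844 CPM there and at 283 and 341 in TAF15 OE 2 and 3, and Psmb8 was at 15.5, 5.52 and 8.86 CPM. Without TAF15 OE 1 the median was 0.80, with 6 higher, where 7.56% of all genes rose. Ggta1, which makes the alpha-gal sugar, went from 6.03 ± 1.18 to 21.5 ± 1.26 CPM, which is 1.84 in log2 terms (SE 0.15; adjusted p = 6.49e-05). Serping1, the inhibitor of complement C1, went from 11.5 ± 1.51 to 36.6 ± 8.15 CPM (1.67, adjusted p = 0.000425), and Srgn, a granule proteoglycan of blood cells, rose by 1.19 (adjusted p = 0.00213). Psmb8, an immunoproteasome subunit, rose by 1.30 (adjusted p = 0.0489) but not without Control 1, 2 or 3 or TAF15 OE 3 (adjusted p 0.0974 to 0.169). Of the genes tied to ischaemic (A2) astrocytes, 9 of 12 tested rose and 0 fell, against the same 9.32% and 5.95% of all tested genes. The median of these A2 genes was 0.92. Tgm1, a transglutaminase that cross-links proteins, went from 0.735 ± 0.433 to 9.45 ± 1.95 CPM, which is 3.67 in log2 terms (SE 0.34; adjusted p = 0.000210). Cd14, a co-receptor for bacterial lipopolysaccharide that microglia also carry, rose by 1.38, S100a10, an annexin partner, by 0.86, and Tm4sf1, a membrane protein of endothelium, by 0.75 (adjusted p = 0.00129, 0.00195 and 0.00547). Genes of both groupings thus rose, and whether one rose more than the other was not tested.

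Cytokines, complement C1q genes and signalling genes tied to the reactive state were counted last. Of 18 genes 12 were tested, 8 rose and 0 fell, with a median log2 fold change of 1.08. The 8 include the complement genes C1qa, C1qb and C1qc. C1qa stood at 394 CPM in TAF15 OE 1 and at 208 and 225 in TAF15 OE 2 and 3. Of the cytokines tested, only Tgfb1 passed, and Il1a (adjusted p = 0.0797) and Lif (0.0588) did not. Without Control 1 or Control 2, 3 genes of the list rose, and without Control 3, 5 rose. Over all genes, 5.55%, 5.10% and 6.57% rose without Control 1, 2 and 3, against 9.32% with all libraries. Without TAF15 OE 1 the median of the list was 0.63. Socs3, a target and brake of STAT3 signalling, went from 2.48 ± 0.289 to 8.15 ± 1.74 CPM (1.72, SE 0.22, adjusted p = 0.000943). Il6st, which encodes gp130, rose by 0.54 (adjusted p = 0.00120) and Nfkb1, an NF-κB subunit, by 0.56 (adjusted p = 0.0104; 0.0522 without Control 2). Tgfb1, an anti-inflammatory cytokine made largely by microglia, rose by 0.88 (adjusted p = 0.0159), but not without Control 1 (0.0648) or Control 2 (0.0704). Genes of 6 cytokines were too scarce for a test: Il6 had 0 counts in each Control library and 1, 3 and 1 in TAF15 OE, Osm, the ligand of OSMR, had 2, 3 and 1 against 21, 13 and 6, and Tnf had 3, 1 and 4 against 11, 8 and 3. In each list above with 0 genes that fell by edgeR, 0 also fell at an unadjusted p below 0.05 and by DESeq2, but 1 A1 gene was called lower without Control 3 and 1 partner without TAF15 OE 1. With libraries scaled on resting astrocyte genes, however, some were called lower: 5 of the partners (2 higher), 3 of the resting genes (3 higher), 2 of the A1 genes (4 higher) and 1 of the A2 genes (5 higher). In that fit 8397 of all 16758 tested genes were called lower and 563 higher, and the mean of the resting genes was set to no change. That scaling also ended the calls of Il6st (0.12, adjusted p = 0.258), Nfkb1 (0.14, 0.368), Tgfb1 (0.45, 0.0547), Cp (0.53, 0.0516), Timp1 (0.76, 0.0936), Psmb8 (0.86, 0.0514), Tm4sf1 (0.33, 0.0990) and Sox9 (0.22, 0.0927).

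**Figure D4:**
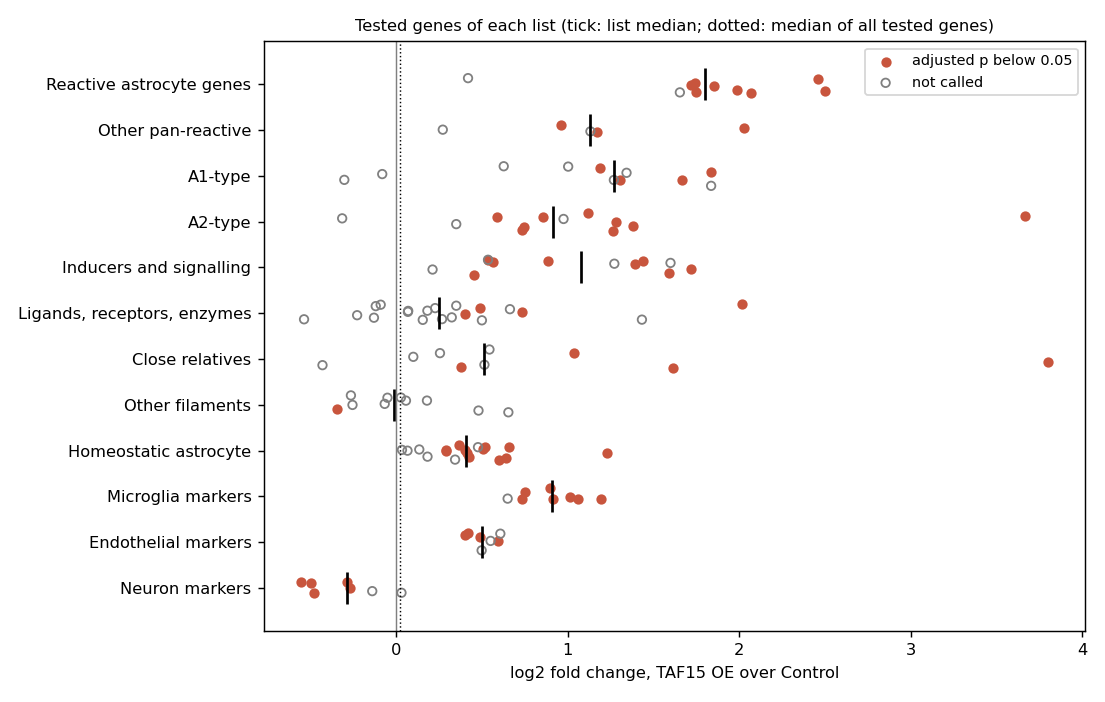
Log2 fold change, TAF15 OE over Control, of each tested gene in the 10 reactive astrocyte genes and in the related lists; points are genes, filled where the adjusted p was below 0.05, black ticks are list medians and the dotted line is the median of all tested genes. The median is 1.80 for the 10 genes, 0.41 for homeostatic (resting) astrocyte genes and -0.010 for other intermediate filaments.

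The protein-coding genes whose levels over the 6 libraries lay closest to Gfap were sought by the root-mean-square distance of log2 CPM, centred on the Control mean. A prior count of 2 was added before taking logs, which draws the differences of low-count genes toward 0. Taf15 was closest, at 0.10, followed by Osmr at 0.15, St14, a membrane serine protease gene, at 0.17, Lilr4b, a leukocyte receptor gene, at 0.17 and Pidd1, a death-domain adaptor gene, at 0.24. Lilr4b had only 5, 4 and 3 counts in Control and 33, 20 and 25 in TAF15 OE. Its log2 fold change by edgeR was 2.58, against 2.07 for Gfap, so its small distance depends on the prior count. It also overlaps the protein-coding Gm49339 on the same strand. Within the set, Serpina3n lay at 0.16, Vim at 0.25 and S1pr3 at 0.29, and Nes farthest at 1.20. With 6 libraries in 2 groups, such a distance takes in both the size of the group difference and the spread within groups.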

How the data were processed

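The hippocampal transcriptome of 6 mice was measured with TruSeq libraries, as the labels state. The submitters' processing notes name GRCm38 and the tools HISAT2 2.1.0, TopHat2, Bowtie2 2.2.3 and CASAVA, without their roles. Counter, annotation release and strand use are not stated in the labels. The authors deposited raw counts per gene and FPKM values; for 8926 genes each deposited FPKM equalled count over length and library total within 3.89e-09. The authors' comparison table adds a mean normalised signal, a fold change as ratio and log2, and p-values, raw and adjusted, from an unnamed test.

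Counts were tested in R 4.3.3 with edgeR 4.0.16: filterByExpr, TMM, robust quasi-likelihood fit with group as the only term, and Benjamini-Hochberg over 16758 genes. TMM factors were 0.964 to 1.03 and the biological coefficient of variation 13.1%. Fits were tested on simulated counts. No libraries were duplicates (smallest chi-square per degree of freedom 5.18). The labels give no batch. Alternatives were other scalings, filters, DESeq2 1.42.0, limma 3.58.1 on log2 FPKM, a replicate block and leaving out libraries. The genes and lists were chosen with earlier results of these data known, so they are no independent evidence of direction. Named were the 10 genes, Taf15, up to 4 members with the smallest p per list, and the 5 genes nearest to Gfap. Glul, Fgfr3, H2-D1, Jchain, C1qa, C1qb, C1qc, Il1a, Lif and the untested or low-count genes were added after their values were seen. Gene positions came from the authors' table and overlaps from GENCODE M21.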

Additional observations from a re-analysis of the deposited data

How the results depend on the processing

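Gfap, Vim, S1pr3, Serpina3n, Cd44, Aspg and Chil1 kept direction and call in 18 of 18 alternatives. Steap4 was the one gene of the 10 to lose its call with a single library left out. Lcn2 passed with DESeq2 (1.63), the replicate block (1.68) and without Control 1 and TAF15 OE 1 (1.58). Steap4 did not pass with scaling on resting astrocyte genes (1.30), log2 FPKM with pseudocount 1 (0.69, with or without the filter) or 0.1 (1.70), and ran from 1.27 to 2.51 with single libraries left out. Scaling on resting astrocyte genes turned the signs of Nes (-0.0061), S1pr1 (-0.023) and Asrgl1 (-0.043); it sets those genes to no mean change. Of all genes, 2559 were called, against 8960 with that scaling, 1551 and 1630 on log2 FPKM with pseudocount 1 and 0.1, 669 with pseudocount 1 and no filter, and 1331 to 2501 with single libraries left out.

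Under resting astrocyte scaling, 563 of all 16758 tested genes were called higher and 8397 lower. For the lists, calls under that scaling were 1 higher (other pan-reactive), 6 (resting astrocyte, 3 higher and 3 lower), 6 lower (filament), 7 (partners, 2 higher and 5 lower), 4 higher (inducers), 6 (A1, 4 higher and 2 lower) and 6 (A2, 5 higher and 1 lower). On log2 FPKM with pseudocount 1 and no filter they were 1 (other pan-reactive), 3 (A2), 7 (resting astrocyte), 2 (partners) and 5 (inducers, also 5 with the filter), while every FPKM test gave 0 for filaments and 2 for relatives. Filament calls were 2 with DESeq2 size factors, with total counts and without Control 1 and TAF15 OE 1, and 3 with no filter, DESeq2 or the replicate block. Relatives gave 7 with no filter and partners 7 with the replicate block. With single libraries left out, calls ran from 1 to 3 (other pan-reactive), 6 to 12 (resting astrocyte), 0 to 3 (filament) and 3 to 9 (inducers). The causes of these changes in calls were not tested.

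In the labels, same-numbered libraries share only a number. Their deviations from the group means correlated at 0.126, 0.0776 and 0.0871. The replicate block called 3291 genes. Each library correlated best with its own number in the other group, but these correlations were weak, and whether the libraries are paired was not tested. Control 1 and TAF15 OE 1 also had the lowest choroid plexus sums of their groups (145 and 1521 CPM). Counts were low for Steap4, Lcn2 and the untested cytokine genes, and whether depth limited their results was not tested. Lcn2 also varied between mice, with a coefficient of variation of 71.1% of CPM in Control and 66.9% in TAF15 OE.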
